A study of Lens culinaris with 20 samples.

Results

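Lentil small RNAs of 23 and 24 nucleotides (nt) that carry a lentil name, rather than the name of a known miRNA, were examined over 7 organs of lentil (Lens culinaris), a grain legume. Members were the mature sequences of 23 nt or longer whose name has the lentil prefix lcum, counted once per sequence and listed above 0 in at least 3 of the 20 libraries. This left 85 members among 1464 distinct sequences, of which 75 have 24 nt, 10 have 23 nt and 0 have 25 nt. There were 3 libraries each of stem, roots, shoots, flower buds, mature leaves and young pods, and 2 of flowers. All are small RNA libraries from pooled plant samples, and the labels give no cultivar, plant age or growth conditions. Whether replicate libraries stand for separate plants or pools is not stated either, so a p-value here is set against a library-to-library spread that could be purely technical.

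In flowering plants most small RNAs of 24 nt are short interfering RNAs (siRNAs). RNA polymerase IV and the RNA-dependent RNA polymerase RDR2 make a double-stranded precursor, the Dicer enzyme DCL3 cuts it, and Argonaute proteins of the AGO4 group carry the product to matching DNA, which becomes methylated. In Arabidopsis these Argonautes prefer small RNAs that begin with A, and the pathway is known for silencing transposons and repeats. Classical plant miRNAs are shorter, are cut by DCL1 from a single-stranded hairpin and mostly begin with U. The deposited names call all of the members miRNAs. Length alone does not tell the classes apart, and no precursor locus could be placed here because no genome was used.

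The sequences below are the 6 members of 24 nt with the highest mean level over the tissues, shown because they carry most of the 24-nt reads. The first base is in capitals, U is written as T, and all sequences are as deposited, from 5′ to 3′.
lcum-miR-22305_643-3p: Ttgcattcgtatactcctacactt
lcum-miR-70562_122-3p: Agatttgttgttcttgtattagac
lcum-miR-87385_85-5p: Aaaatgggccggaccgagaaaccc
lcum-miR-56508_175-5p: Ataaacgggtcgggctaaaaagcc
lcum-miR-90669_80-3p: Aatagatcatatgacagcttcacc
lcum-miR-50031_212-3p: Aaccaggctctgataccatgacat
Of these 6 sequences 5 begin with A and the leading one begins with T.

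First bases varied with length. Among the 75 members of 24 nt, 52 began with A (69.3%), 11 with T, 10 with G and 2 with C. Lentil-named sequences of 24 nt in fewer than 3 libraries began with A in 187 of 341 cases (54.8%). Lentil-named sequences of 21 nt in 3 or more libraries did so in 20 of 61 cases (32.8%), and known miRNAs of 18 to 22 nt in 18.4% of 347 cases. The 10 members of 23 nt began with A in 3 cases, T in 3, G in 3 and C in 1. Counted by reads, the picture for 24 nt was the other way round: 57.4% of the 24-nt reads began with T and 37.9% with A. A single member, lcum-miR-22305_643-3p, held 53.3% of the 24-nt reads. Related sequences are counted separately here, so these shares are descriptions and were not tested.

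The 4 most abundant members of 23 nt follow. In the first pair, capitals mark the 20 bases they share, and in the others the first base.
lcum-miR-5851_2620-3p: ACAGAATAAGAATGAAATAAaat
lcum-miR-23592_602-3p: aACAGAATAAGAATGAAATAAga
lcum-miR-10811_1404-3p: Gaggggtcccgttgagttcttca
lcum-miR-55998_178-3p: Tctatttgattttgagcacgcgt
The listed precursors of the first pair show how the 2 sequences relate. Capitals mark the stretch where each mature sequence was placed.
lcum-miR-5851_2620-3p precursor: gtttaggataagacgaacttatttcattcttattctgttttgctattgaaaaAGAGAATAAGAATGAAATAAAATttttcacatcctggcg
lcum-miR-23592_602-3p precursor: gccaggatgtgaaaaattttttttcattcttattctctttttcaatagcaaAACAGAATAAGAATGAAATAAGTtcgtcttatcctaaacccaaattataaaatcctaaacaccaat
The precursors share a run of 69 bases when one of them is read on its opposite strand, against 18 bases on the same strand. Neither mature sequence lay unchanged in its own precursor. Counting positions from 1 at the 5′ end of the mature sequence, with the base of the precursor first, lcum-miR-5851_2620-3p carries G2C and lcum-miR-23592_602-3p carries T23A. Lentil-named forms of 22 nt (lcum-miR-14959_999-3p, 1883.5 reads) and 21 nt (lcum-miR-21975_654-3p, 551 reads) share at least 19 bases with both. The pair itself held 9896.5 and 5660 reads over all libraries.

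The third sequence pattern is a hairpin whose 2 arms are nearly perfect complements. It is shown for lcum-miR-55998_178-3p because a member lies on each arm.
lcum-miR-55998_178-3p precursor: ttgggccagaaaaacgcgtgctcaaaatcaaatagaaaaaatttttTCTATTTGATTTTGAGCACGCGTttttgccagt
lcum-miR-648783_5-5p on the opposite arm: ACGCGTGCTCAAAATCAAATAGAa
lcum-miR-118795_50-3p, differing at its last base: TCTATTTGATTTTGAGCACGCGa
In the precursor the capitals mark the mature sequence. In the second line they mark the 23 bases complementary to it, and in the third line the 22 bases shared with it. RNAfold gave this precursor of 79 bases a minimum free energy of -47.3 kcal/mol. The 5′ arm had 7.5 reads in 3 libraries, against 285 reads in 11 libraries for the 3′ arm.

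Over all 85 members the listed precursors were 66 to 166 bases long, with a median of 98, and a median of 79.2% of the bases of a mature sequence were paired in the predicted fold. The mature sequence lay unchanged in its precursor for 63 members and with 1 mismatch for 22. Of the 22 mismatches 6 fell on the last base and 10 in the last 3 bases. A total of 52 members were named for the 5′ arm and 33 for the 3′ arm.

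A group of members shared an internal run of 12 bases, ACCGGAAGACTT, set in capitals here, which was the longest run found in at least 6 members.
lcum-miR-94005_75-5p: gcACCGGAAGACTTtggaaaagt
lcum-miR-74085_112-5p: aaACCGGAAGACTTcagtgcaaga
lcum-miR-183339_24-5p: gtACCGGAAGACTTgcatacaagt
lcum-miR-165774_28-5p: aaagcgtACCGGAAGACTTgcata
lcum-miR-179650_25-5p: aaACCGGAAGACTTcaatgtaaga
lcum-miR-149860_34-5p: aaACCGGAAGACTTgcacagaagt
The run was picked from these sequences, so its count has no test, and it was searched on both strands of all features. It stood in 6 of the 85 members (7.06%) and in 17 of the 1464 features (1.16%). Of these 17, 16 were lentil-named features of 24 nt (3.85% of all such features), 0 had a known miRNA name, and its reverse complement stood in 0 features. All 6 begin with A or G. They were rare, with 20 to 58 reads each over the 20 libraries. Flower buds held 41 of the 58 reads of lcum-miR-94005_75-5p and 32 of the 56 reads of lcum-miR-74085_112-5p, but only 4 of the 23.5 reads of lcum-miR-179650_25-5p.

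More widely, 31 members shared at least 14 bases with another feature on either strand. Of these, 19 shared them with another member, in 7 groups. A further relation was to known miRNAs. The member lcum-miR-50031_212-3p, printed above, holds all 21 bases of gma-miR1511_R+1_1, a miR1511 sequence with 54823.5 reads, and differs from the precursor by T22C near its 3′ end. The member lcum-miR-90669_80-3p holds 20 bases of lja-MIR167-p3_1ss10GA, and its precursor carries ath-miR167d_1ss22GA on the other arm, of the family that targets auxin response factors, with 64707 reads. The member lcum-miR-302166_10-3p holds mtr-MIR169j-p3_1ss3CT, of the family that targets NF-YA factors. The member lcum-miR-307035_10-5p shares 15 bases with ptc-miR160h, of another family that targets auxin response factors. These 4 members have the siRNA length but lie in precursors of known miRNAs.

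Detection of the members moved with library depth. The deposited list has a floor near 5 reads: of 448 member values above 0, 107 were exactly 5 reads and 58 lay under 5. A listed 0 can thus hide up to about 4 reads. In CPM, the reads scaled to a common library size, 5 reads equal 4.03 in flowers 2, the deepest library, and 61.0 in mature leaves 3. Flowers 2, with 997065 reads, listed 70 members above 0, while flowers 1, with 232244 reads, listed 9. Of the 61 members listed in flowers 2 and at 0 in flowers 1, 56 would lie under 5 reads at the depth of flowers 1. Flower buds listed 26, 52 and 47 members, shoots 6, 24 and 47, stem 15, 24 and 27, young pods 20, 15 and 7, roots 5, 17 and 11, and mature leaves 13, 8 and 5. Roots 2, the shallowest library, listed 17 members, above the 13 of mature leaves 1, which had 531442 reads. Depth thus did not order all libraries, and its part in the tissue differences in detection was not tested. Because the members were chosen by being listed in 3 or more libraries, the total number listed is no finding in itself.

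**Figure D1:**
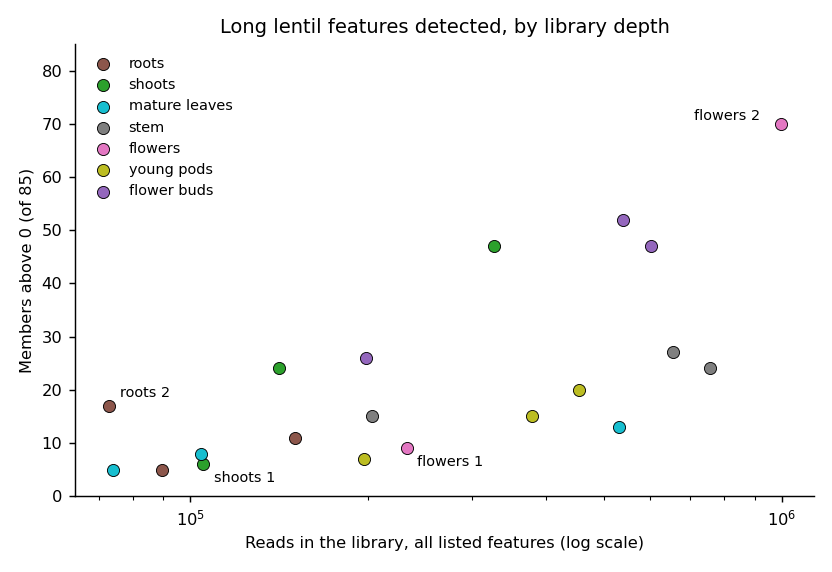
The number of members above 0 (vertical axis, of 85) is plotted against the reads in the library (horizontal axis, log scale), with a point for each of the 20 libraries coloured by tissue. Flowers 2 lists 70 members and flowers 1 lists 9, and roots 2 lists 17 at the lowest depth.

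Of the 85 members 36 were listed in exactly 3 libraries, with a median of 18.75 reads in total. The 101 lentil-named sequences of this length that were listed in 2 libraries, just outside the rule, had a median of 11 reads. A total of 68 members never reached 20 reads in any library, and 6 reached 100. The most abundant 4 members, lcum-miR-5851_2620-3p, lcum-miR-23592_602-3p, lcum-miR-22305_643-3p and lcum-miR-10811_1404-3p, held 84.1% of all 25977.5 member reads. They were also the members listed in most libraries, 18 or 19 of 20. In contrast, 66 members were never above 0 in every library of any tissue.

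**Figure D2:**
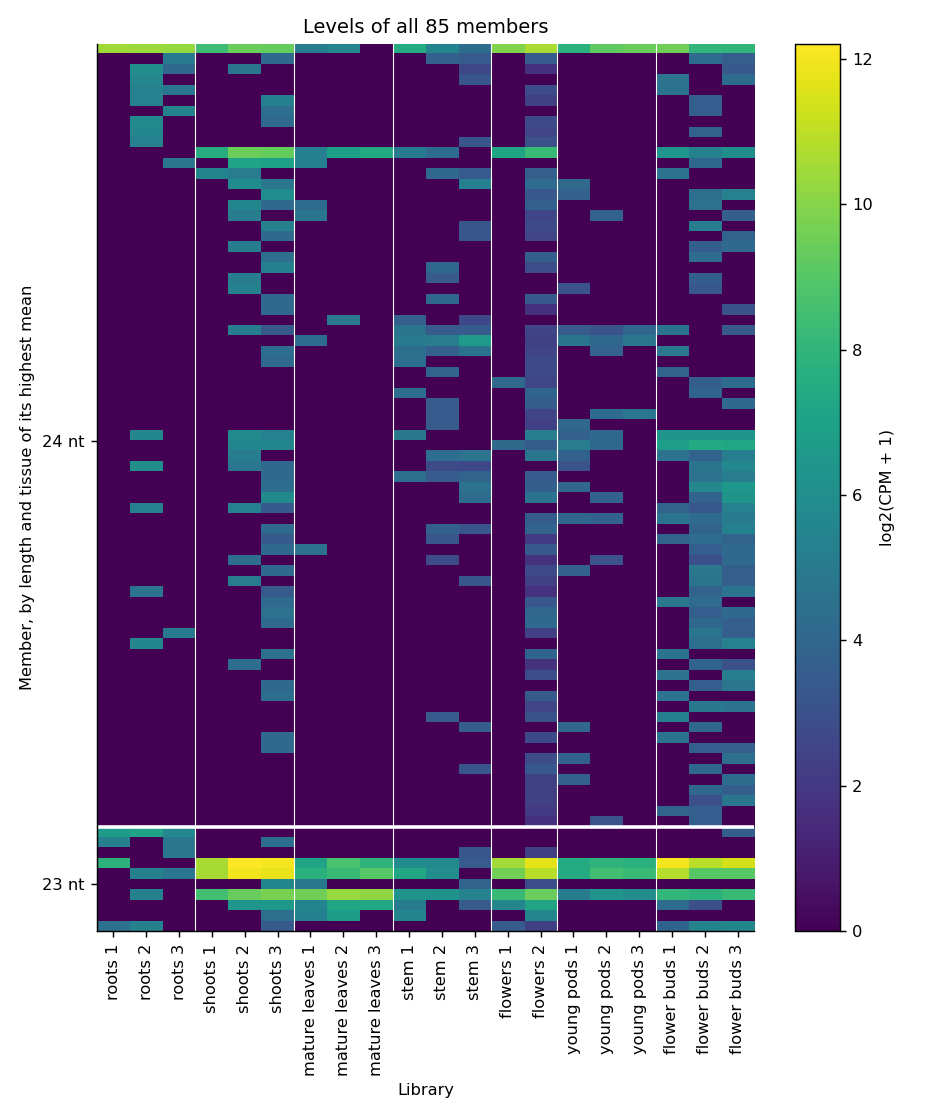
Each row is one of the 85 members and each column a library, with colour for log2(CPM + 1). Members of 24 nt stand above the white line and members of 23 nt below it, sorted by the tissue of the highest mean. A few members are seen in most libraries, and flowers 2, flower buds 2 and 3 and shoots 3 hold the most members.

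Members of 24 nt took the largest mean share of the listed reads in roots, 0.233% ± 0.0743 (SD, n = 3), and the smallest in mature leaves, 0.0161% ± 0.00554 (n = 3). The share was 0.219% ± 0.118 (n = 2) in flowers, 0.164% ± 0.0885 (n = 3) in shoots, 0.119% ± 0.0265 (n = 3) in flower buds, 0.0610% ± 0.0181 (n = 3) in young pods and 0.0332% ± 0.0136 (n = 3) in stem. Every root, shoot, flower and flower bud library lay above every mature leaf and stem library. Root libraries lay above all flower bud libraries, while the ranges of shoots and flowers overlapped with both. Without lcum-miR-22305_643-3p the order changed. The remaining 74 members then took 0.108% ± 0.0713 in shoots, 0.0797% ± 0.00880 in flower buds and 0.0390% ± 0.05004 in roots, where roots 1 had 0 and roots 2 had 0.0954%. Flowers were at 0.0612% ± 0.0549 (n = 2) and stem at 0.0245% ± 0.00716 without it, and the lowest means were those of mature leaves, 0.0139% ± 0.00551, and young pods, 0.0136% ± 0.00713, which differed by less than their SDs. These shares depend on no scaling between libraries, but are shares of the listed reads only. They can still depend on depth through the floor near 5 reads, as a rare member is more readily listed at 0 in a shallow library. Of the 61 members listed in flowers 2 and at 0 in flowers 1, 56 would lie under 5 reads at the depth of flowers 1. Roots 2, at 0.0954%, was the shallowest library. The part of depth in the order without lcum-miR-22305_643-3p was not tested. Fewer cells that hold an RNA and less of it per cell cannot be told apart in whole organs.

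Members of 23 nt followed another pattern. Their share was 0.720% ± 0.321 in shoots, 0.535% ± 0.315 in flowers and 0.376% ± 0.240 in flower buds, then 0.172% ± 0.0951 in mature leaves, 0.0534% ± 0.0180 in young pods, 0.0380% ± 0.0206 in roots and 0.0213% ± 0.0199 in stem. In roots the 24-nt share was above the 23-nt share in all 3 libraries, while in shoots, flowers, flower buds and mature leaves the 23-nt share was the higher in every library. Without the related sequences lcum-miR-5851_2620-3p and lcum-miR-23592_602-3p this order changed too. The remaining members of 23 nt took 0.0439%, 0.153% and 0.144% in mature leaves and 0.0385%, 0.0780% and 0.0949% in shoots. They took 0.0435% and 0.110% in flowers and 0.0321%, 0.0226% and 0.0255% in flower buds, below the 24-nt share of each flower bud library.

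**Figure D3:**
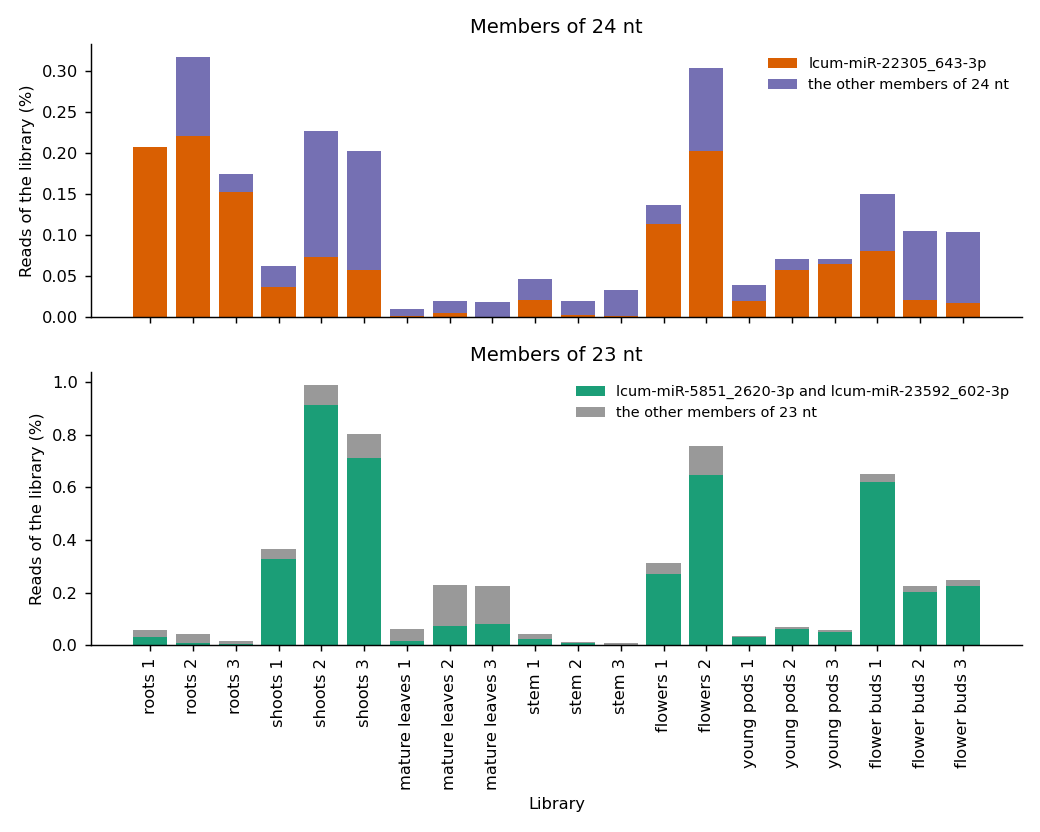
Bars give the share of a library's listed reads (%) taken by members of 24 nt (upper panel) and 23 nt (lower panel), stacked to separate the leading members from the rest, for the 20 libraries. The upper panel is led by lcum-miR-22305_643-3p in roots and flowers and by other members in shoots 2 and 3 and flower buds 2 and 3, and the lower panel reaches 0.990% in shoots 2.

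Of the 85 members 12 passed the filter on low counts and entered the edgeR test over 323 features, 6 of 24 nt and 6 of 23 nt. The other 73 members have levels only. Each tissue was set against the average of the remaining 6 (log2 scale), and a member counted as called when its p, adjusted by Benjamini-Hochberg over all 323 features, was under 0.05 and, in a contrast, its log2 fold change was 1 or more in size. Levels below are CPM scaled by edgeR's TMM method. Statements that a library lay above another are for these levels, and some of them depend on the scaling. All comparisons use the same 20 libraries, so they are not independent of each other. A feature listed at 0 throughout a tissue of the comparison has no usable fitted fold change, and where this is among the other 6 tissues it cannot be called lower. Fold changes are therefore given only for the 4 members without such a tissue.

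The most abundant member of 24 nt, lcum-miR-22305_643-3p, was a root and flower sequence. It was at 1427, 1304 and 1236 CPM in roots and at 935 and 1628 CPM in flowers. It was at 345, 698 and 629 CPM in shoots, 224, 570 and 675 CPM in young pods, and 756, 261 and 251 CPM in flower buds. Stem was at 180, 44.9 and 18.97 CPM and mature leaves at 33.4, 47.2 and 0 CPM. The root libraries lay above all others except flowers 2, and the mature leaf libraries below all others except stem 2 and 3. Against the mean of the other tissues it was higher in roots (log2 fold change 2.32 ± 0.47 SE, n = 3 libraries, edgeR adjusted p = 0.000426) and in flowers (2.27 ± 0.53, n = 2, edgeR adjusted p = 0.00811). It was lower in mature leaves (-4.09 ± 0.80, edgeR adjusted p = 0.000465) and in stem (-2.42 ± 0.67, edgeR adjusted p = 0.00894). The call in flowers was lost without flowers 2 (edgeR adjusted p = 0.0501), where flowers hold 1 library that is assumed to vary like the other tissues, here and in each refit without a flower library. The call in stem was lost without stem 2 (0.145) or stem 3 (0.0620).

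The second of 24 nt, lcum-miR-70562_122-3p, was a shoot sequence listed at 0 in all 3 root and all 3 young pod libraries. Shoots were at 195, 698 and 646 CPM and flowers at 149 and 301 CPM. Mature leaves were at 37.1, 123 and 171 CPM, flower buds at 80.8, 40.8 and 67.1 CPM, and stem at 32.8, 18.4 and 0 CPM. Shoots 2 and 3 lay above every library of another tissue, and shoots 1 above all of them except flowers 2. It was called higher in shoots (edgeR adjusted p = 4.94e-05), flowers (0.00335) and mature leaves (0.0121). The mean of mature leaves, 110 CPM, was below the average of the other 6 tissue means, 136 CPM, so the call there holds on the log scale, where the tissues at 0 weigh most, and not for the means. The call in mature leaves was lost when any 1 of 7 libraries was left out, among them mature leaves 3 (edgeR adjusted p = 0.0645) and roots 2 (0.0711).

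Flower buds had 2 tested members of 24 nt whose bud libraries lay above all 17 other libraries in TMM-scaled CPM. The first, lcum-miR-87385_85-5p, was at 114, 174.6 and 160.5 CPM in flower buds. It was at 0, 47.0 and 47.1 CPM in shoots, 17.7 and 11.3 CPM in flowers and 35.6, 15.7 and 0 CPM in young pods, and was listed at 0 in every root, mature leaf and stem library. It was called higher in flower buds (edgeR adjusted p = 0.000685) and in shoots (0.0333), where the mean of 31.4 CPM was close to the 30.2 CPM averaged over the other 6 tissue means. It passed the filter on low counts only through flower buds, as shoots 2 was the only other library to reach the cutoff. A high bud level was therefore required for it to be tested. The shoot call was lost when any 1 of 14 libraries was left out, shoots 2 (edgeR adjusted p = 0.185) and shoots 3 (0.199) among them. The other, lcum-miR-56508_175-5p, was at 80.8, 81.6 and 79.0 CPM in flower buds, at most 53.7 CPM elsewhere, and at 0 in mature leaves. For this member the order depends on the scaling. By share of listed reads, roots 2 (6 of 72825.2 reads) lay above flower buds 2 (36 of 538868) and flower buds 3 (33 of 600443). Its difference did not pass the test (edgeR adjusted p = 0.0577 in flower buds).

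The other tested members of 24 nt were less regular. The member lcum-miR-90669_80-3p, from the miR167 precursor, was at 0, 141 and 124 CPM in shoots, at 26.9 CPM in roots 3, 37.1 CPM in mature leaves 1 and 15.9 CPM in flower buds 2, and at 0 in the other 14 libraries. It was called higher in shoots (edgeR adjusted p = 0.00456), although shoots 1 was at 0. It passed the filter on low counts only through shoots 2 and 3, so a high level there was required for it to be tested. The member lcum-miR-133376_41-3p was highest in flower buds, at 0, 13.6 and 79.0 CPM, and had 0 calls, with an edgeR adjusted p of 0.329 over the 7 tissues.

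Stem held the highest listed levels of a 24-nt sequence below the filter. The member lcum-miR-50031_212-3p, the long form of miR1511, was at 32.8, 34.7 and 96.6 CPM in stem, above the listed levels of all other libraries. But 5 reads equal 44.2 CPM in shoots 1, 47.2 CPM in mature leaves 2 and 61.0 CPM in mature leaves 3. A listed 0 there does not show a level below that of stem. It was at 25.4, 15.7 and 26.4 CPM in young pods. By share of listed reads, young pods 3 (5 of 196957 reads) lay above stem 2 (17 of 756169). Mature leaves 1 had 18.5 CPM, flowers 2 had 4.03 CPM, and the other libraries were at 0. The member lcum-miR-189017_22-5p was at 20.5, 12.3 and 22.4 CPM in stem and reached 28.5 CPM in flower buds 1, so its tissues overlapped. Neither was tested.

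The 3 remaining rare members chosen by the naming rule had at most 14 reads in any library, with some values of lcum-miR-165774_28-5p under the 5-read floor. In flower buds lcum-miR-124258_46-3p was at 23.8, 18.1 and 31.1 CPM, with 15.3 CPM as its highest level elsewhere. The motif member lcum-miR-165774_28-5p was at 14.3, 18.1 and 14.4 CPM in flower buds, with 10.1 CPM as its highest level elsewhere. For both, buds lay above the listed levels of all other libraries. But 5 reads equal 40.5 CPM in roots 2 and 61.0 CPM in mature leaves 3. A listed 0 in such shallow libraries does not show a lower level. For lcum-miR-307949_10-5p, flowers were at 17.7 and 4.83 CPM and flower buds at 0, 11.3 and 19.2 CPM, which overlapped.

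Over all 75 members of 24 nt, the highest tissue mean fell in flower buds for 38, in shoots for 16, in roots for 10, in stem for 5, in flowers for 3, in young pods for 2 and in mature leaves for 1. Most of these peaks rest on few libraries. The member was above 0 in every library of its peak tissue for 6 of the 38 in flower buds, 1 of the 16 in shoots and 1 of the 10 in roots. The count also moved with scaling and with single libraries. Over all 85 members flower buds held 39 peaks under TMM, 25 under library size alone and 49 under the authors' factors. Without flower buds 3 they held 29, and without roots 2 the root peaks went from 13 to 8. Flower buds held more peaks than any other tissue under each of these, though under library size alone shoots followed with 20. The same count was not made over all features, so the lead is not shown to be particular to the members.

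Among members of 23 nt, lcum-miR-5851_2620-3p was at 1547, 4714 and 4267 CPM in shoots, 3997, 1959 and 2699 CPM in flower buds and 1445 and 3325 CPM in flowers. Mature leaves were at 137, 434 and 244 CPM and young pods at 173, 246 and 222 CPM. Stem was at 57.4, 57.2 and 10.3 CPM, and roots at 230, 0 and 0 CPM. The shoot, flower and flower bud libraries all lay above every other library. It was higher in shoots (3.43 ± 0.57, edgeR adjusted p = 0.000216), in flower buds (3.09 ± 0.58, 0.000882) and in flowers (2.78 ± 0.66, 0.00859), and lower in stem (-4.07 ± 0.97, 0.00330). It was also called lower in roots (-3.05 ± 0.93, edgeR adjusted p = 0.00977), but this was lost without roots 2 (0.0569) or roots 3 (0.0626), and roots 1 was above several libraries of other tissues. The flower call was lost without flowers 2 (edgeR adjusted p = 0.0632), and the stem call without roots 1, which leaves roots at 0.

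Its partner lcum-miR-23592_602-3p was at 1494, 3928 and 3534 CPM in shoots, 772 and 1872 CPM in flowers and 1839, 515 and 522 CPM in flower buds. Mature leaves were at 219, 302 and 500 CPM, young pods at 183, 358 and 311 CPM, stem at 156, 63.3 and 0 CPM, and roots at 0, 40.5 and 26.9 CPM. It too was higher in shoots (3.63 ± 0.57, edgeR adjusted p = 0.000152) and lower in roots (-4.56 ± 1.06, 0.00132). The calls in flowers (2.26 ± 0.68, 0.0307), flower buds (1.71 ± 0.62, 0.0494) and stem (-2.68 ± 0.88, 0.0252) each failed when a library of that tissue was left out, and in all they failed in 1, 11 and 6 of 20 refits without 1 library. The edgeR adjusted p was then 0.183 without flowers 2, up to 0.497 among the flower bud libraries without flower buds 1, and up to 0.195 among the stem libraries without stem 2.

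The 2 partners did not keep one ratio. Within a library, where no scaling enters, lcum-miR-5851_2620-3p had 1.03, 1.20 and 1.21 reads per read of lcum-miR-23592_602-3p in shoots. In flower buds this ratio was 2.17, 3.81 and 5.17, and in flowers 1.87 and 1.78. In young pods it was 0.938, 0.682 and 0.712, in mature leaves 0.627, 1.44 and 0.476, and in the 2 stem libraries with at least 5 reads of both 0.355 and 0.887. Among the libraries with at least 5 reads of both, the flower bud libraries lay above all others and the flower libraries next, with no overlap. Roots 1 had 29.5 reads of the first and 0 of the second, stem 3 had 6 and 0, and roots 2 and 3 each had 0 and 5, so no ratio is given for them. The ratio was examined after the values had been seen, so it is given without a test, and reads that match both sequences may have been divided among entries by the authors.

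**Figure D4:**
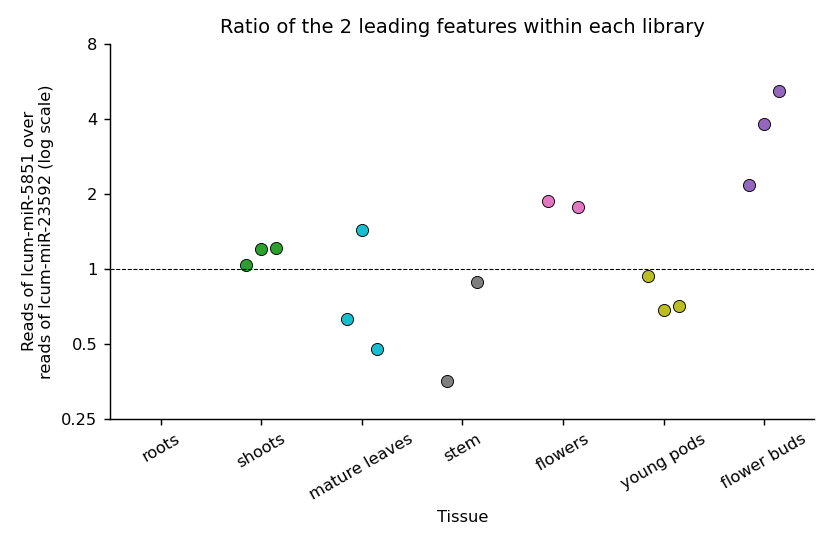
The reads of lcum-miR-5851_2620-3p over those of lcum-miR-23592_602-3p are plotted for each library (vertical axis, log scale) by tissue, where both had at least 5 reads. The dashed line marks equal reads. Flower buds lie at 2.17 to 5.17 and flowers at 1.78 and 1.87, above every other library with at least 5 reads of both.

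The member lcum-miR-10811_1404-3p was a leaf sequence, at 757, 1265 and 1158 CPM in mature leaves and 363, 658 and 858 CPM in shoots. Flowers were at 305 and 684 CPM and flower buds at 271, 229 and 309 CPM. Stem was at 77.9, 73.5 and 41.4 CPM, young pods at 35.6, 81.0 and 63.3 CPM, and roots at 0, 40.5 and 0 CPM. At these levels mature leaves lay above all other libraries except shoots 3, which overlapped them. This order depends on the scaling, as the TMM factor of mature leaves 1 was 0.508, and 0.750 with ties rounded to even. By share of listed reads, mature leaves 1 (204 of 531442 reads) lay below flowers 2 (850 of 997065). It was higher in mature leaves (3.07 ± 0.43, edgeR adjusted p = 1.56e-05), shoots (2.19 ± 0.45, 0.00156) and flowers (1.79 ± 0.52, 0.0269), and lower in roots (-4.40 ± 0.80, 0.000162). It was called lower in stem (-1.65 ± 0.60, edgeR adjusted p = 0.0411) and young pods (-1.76 ± 0.61, 0.0426). The flower call was lost without flowers 2 (edgeR adjusted p = 0.231), and the stem and young pod calls were lost when any 1 of 14 and of 15 libraries was left out, roots 2 among them (0.9998 and 0.9997).

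The hairpin member lcum-miR-55998_178-3p was also listed in leaves and flowers, with mature leaves at 44.5, 142 and 159 CPM and flowers at 46.1 and 140 CPM. Shoots were at 0, 80.6 and 90.8 CPM, stem at 32.8, 0 and 10.3 CPM and flower buds at 19.01, 6.80 and 0 CPM, and roots and young pods were at 0. It was called higher in mature leaves (edgeR adjusted p = 0.00569) and flowers (0.0283, and 0.199 without flowers 2). Its near copy lcum-miR-118795_50-3p was at 37.1, 104 and 0 CPM in mature leaves, 46.7 CPM in flowers 2, 45.1 CPM in stem 1 and 20.2 CPM in shoots 3, and was called higher in mature leaves (edgeR adjusted p = 0.0293). That call was lost when any 1 of 9 libraries was left out, mature leaves 1 (0.124) and 2 (0.176) among them.

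A root sequence closes the group. The member lcum-miR-136663_39-3p (Atttaactcaactagcacatact, with its first base in capitals) was at 107, 130 and 48.4 CPM in roots and 12.0 CPM in flower buds 3, and at 0 in the other 16 libraries. But 5 reads equal 61.0 CPM in mature leaves 3, so a listed 0 there does not show a level below that of roots 3. The member was called higher in roots (edgeR adjusted p = 0.000273), but it was above 0 in at least 3 libraries and passed the filter only through roots, so a high root level was required for it to be tested. In the alternative test, DESeq2 gave an adjusted p of 0.127 in roots and 0.539 over the 7 tissues.

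**Figure D5:**
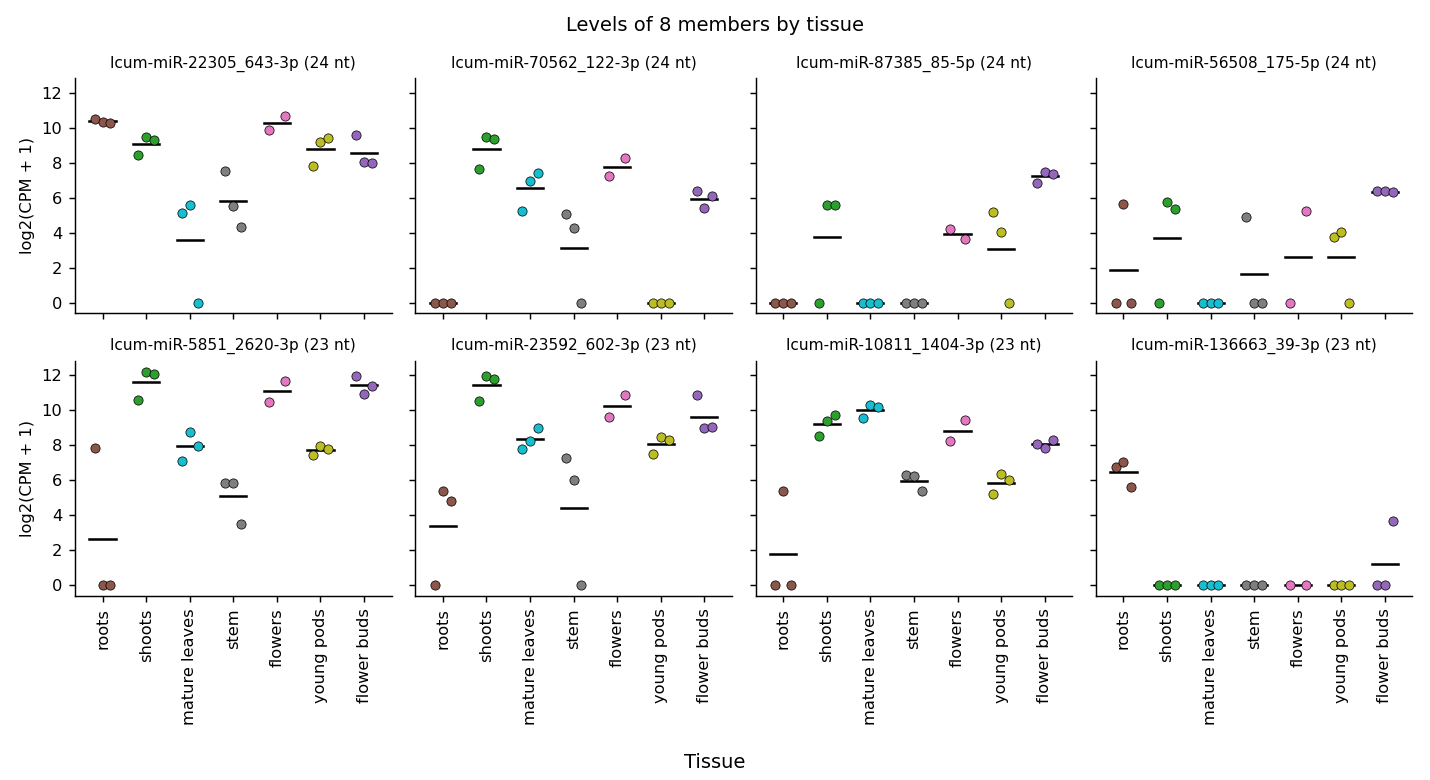
Levels of 8 members are plotted as log2(CPM + 1) (vertical axis) by tissue, with a point per library and a line at the tissue mean. The upper row holds members of 24 nt and the lower row members of 23 nt. The root and flower levels of lcum-miR-22305_643-3p, the flower bud levels of lcum-miR-87385_85-5p, the leaf levels of lcum-miR-10811_1404-3p and the root levels of lcum-miR-136663_39-3p stand above most other tissues.

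Counted by comparison, 9 of the 12 tested members differed over the 7 tissues, where 74.3% of all 323 features did. In shoots 6 were called higher, where 11.5% of all features were, and 0 lower (2.79%). In flowers 6 were higher (13.0%) and 0 lower (2.17%), but without flowers 2 only 1 was called. In mature leaves 4 were higher (21.1%) and 1 lower (9.91%), in flower buds 3 higher (17.6%) and 0 lower (6.19%), in stem 0 higher (22.6%) and 4 lower (7.74%), and in young pods 0 higher (16.1%) and 1 lower (4.64%). In roots 2 were higher (32.2%) and 3 lower (19.8%). Of the 12, only the 4 members without a tissue at 0 throughout were open to a lower call in every tissue. The higher and lower counts are therefore not on an equal footing. The count over the 7 tissues was near the share of all features. The members that passed the filter had to be well covered in some tissue, so the other counts describe these 12 members and not all 85. The shoot count includes lcum-miR-90669_80-3p, the flower bud count lcum-miR-87385_85-5p and the root count lcum-miR-136663_39-3p. Each of them passed the filter only through that tissue, so its call there does not stand apart from its selection. The shoot, flower and flower bud counts each hold both lcum-miR-5851_2620-3p and the related lcum-miR-23592_602-3p. Without stem 2 or stem 3, 1 member was called in stem.

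Reproductive tissues (flowers, young pods and flower buds) were also compared with aerial vegetative tissues (shoots, mature leaves and stem). Of the 12 tested members 3 were higher in reproductive tissues, where 16.4% of all features were, and 1 was lower (13.6%). The 24-nt member lcum-miR-22305_643-3p ran from 224 to 1628 CPM with a median of 622 in the 8 reproductive libraries and from 0 to 698 CPM with a median of 47.2 in the 9 aerial vegetative ones (2.56 ± 0.46, edgeR adjusted p = 0.000295). The 23-nt member lcum-miR-5851_2620-3p ran from 173 to 3997 CPM (median 1702) and from 10.3 to 4714 CPM (median 244), so the ranges overlapped throughout (1.75 ± 0.56, edgeR adjusted p = 0.0224). The member lcum-miR-87385_85-5p was above 0 in 7 of 8 and 2 of 9 libraries (edgeR adjusted p = 0.00624). It had passed the filter only through flower buds, a reproductive tissue, so this call does not stand apart from its selection. In the other direction, lcum-miR-70562_122-3p had a median of 53.9 CPM in reproductive and 123 CPM in aerial vegetative libraries (edgeR adjusted p = 0.0200). Young pods, at 0, weigh most here on the log scale. The flower mean of 225 CPM lay between those of shoots (513 CPM) and mature leaves (110 CPM). The call was lost when any 1 of 6 libraries was left out, roots 2 (edgeR adjusted p = 0.0504) and flower buds 2 (0.0642) among them.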

How the data were processed

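Small RNA of pooled samples was sequenced in 20 libraries of 7 tissues with the TruSeq Small RNA chemistry, per the labels' protocols. The raw columns, so named per the file headers, hold expected counts: some reads were divided among entries by the authors, and few values lie under 5. The normalized columns hold a signal, equal to the deposited raw value times a single factor for the library. The trimming, aligner, caller and build behind these values were not given in the sources used. The table has 1642 entries, and 7 lines are not reported here. Where several entries had one mature sequence, the entry with most reads was kept, giving 1464 features. Counts were rounded to whole numbers, with ties upward.

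Library totals ran from 72825.2 to 997065 reads. edgeR's filterByExpr kept 323 features, TMM factors ran from 0.508 to 1.71, and the quasi-likelihood F-test had a term for tissue and no other, over the 20 libraries together (R 4.3.3, edgeR 4.0.16, limma 3.58.1). The adjusted p is Benjamini-Hochberg over all features tested. Alternatives were DESeq2 1.42.0, its size factors, library size alone, no filter, summed entries, a replicate block, ties rounded to even and leaving out each library. The fit was tested on simulated data. Precursors were folded with RNAfold 2.7.2, and Python 3.11.15 with numpy 2.4.6, pandas 2.3.3 and matplotlib 3.10.9 was used for sequences and plots.

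Members named in the text were the 6 of 24 nt and 4 of another length with the highest mean level, up to 3 called per comparison and direction with the largest fold change, up to 2 per tissue with the highest tau index of specificity, and the 4 listed in most libraries. The other tested members, and those shown for a motif, a shared precursor or a known miRNA, were chosen after their values were seen. The members and lists were chosen with earlier results of these data known.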

Additional observations from a re-analysis of the deposited data

How the results depend on the processing

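No called member changed direction under any alternative run that tested it. Of 43 called results for single members, 24 kept their call in every refit that tested the member. Refits in which the member was not tested or had no adjusted p are left out of these counts. For the shoot call of lcum-miR-90669_80-3p, only 18 refits without 1 library remained, so its call is not shown to hold in the others. Leaving out 1 library lost 93 of 856 refits of these calls, and the other alternatives lost 21 of 298. The number of members called moved beyond 1.5 times in the following cases. In roots it went from 5 to 9 with no filter on low counts and to 9 with entries summed. In flower buds it went from 3 to 12 with no filter and to 5 with entries summed. In young pods it went from 1 to 0 with DESeq2 size factors, 2 with no filter, 3 with the DESeq2 test and 0 with ties rounded to even, an alternative chosen after seeing the data. Dropping the filter lets all 85 members enter.

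Leaving out each library in turn gave 8 to 11 members called over the 7 tissues. By tissue it gave between 4 and 10 in roots, 2 and 8 in flower buds, 4 and 7 in shoots, 1 and 7 in flowers, 3 and 5 in mature leaves, 1 and 4 in stem, 0 and 1 in young pods, and 3 and 5 for reproductive against aerial vegetative tissues. Leaving out flowers 1 or 2, with the remaining library assumed to vary like the other tissues, gave 9 and 10 in roots and 7 and 8 in flower buds, as 30 and 27 members then passed the filter. Leaving out roots 2 gave 5 in flower buds, 3 in mature leaves and 2 in stem. Stem 2, young pods 3, flower buds 2 and flower buds 3 each lowered mature leaves to 3, as did flowers 1, and young pods 3, flower buds 2 and flower buds 3 lowered stem to 2.

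The replicate numbers did not pair the libraries: 57 pairs with the same number had correlations from -0.243 to 0.283 with a median of 0.0282, and 17 were over 0.1. With the replicate number as a block, 9 members were called over the 7 tissues, 5 in roots, 5 in shoots, 5 in mature leaves, 3 in stem, 5 in flowers, 1 in young pods, 4 in flower buds and 4 for reproductive tissues.

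Scaling moved the median of all features. Against TMM, library size alone moved it by 0.63 (log2) in roots and -0.43 in mature leaves, and rounding ties to even by -0.60 in mature leaves and 0.46 in flowers. The share of calls that were higher went from 61.9% to 74.5% in roots and from 68.0% to 57.1% in mature leaves under library size alone. With ties rounded to even it went from 68.0% to 54.2% in mature leaves, 74.0% to 85.4% in flower buds and 54.6% to 70.8% for reproductive tissues. The rule itself gave 186 members at 2 libraries and 49 at 4. Of the 85 members, 68 never reached 20 reads in any library.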
